A study of Mus musculus with 3072 samples.

Results

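The genes described here are 10 cell surface markers of blood stem and progenitor cells, Procr, Esam, Slamf1, Cd48, Ly6a, Cd34, Flt3, Tek, Tie1 and Cd24a. They were taken by symbol from a matrix that holds 55291 gene symbols, and all 10 were found, each on exactly 1 row. The matrix gives single-cell RNA sequencing counts of sorted bone marrow cells from 8 C57BL/6 mice labelled WT, all of them carrying transplanted barcoded stem cells. The 4 control mice were sampled at week 32 after transplantation, and the 4 platelet-depleted mice at week 28. Cells were sorted as HSC, CFU and MkP, abbreviations that the labels leave unexplained. The labels do not give the agent of depletion, its dose, the age of the animals or how many donors were pooled. Each mouse was read from the code at the head of the titles, an assumption since no label says so in words, and mice were the replicates throughout. The first part of the code in the titles also differed between control and depleted mice. Treatment, week and this part of the code coincided in all 8 mice and cannot be told apart. No source used here names the antibodies of the sort. Several of these genes encode proteins that are commonly used to sort such cells, so a difference between populations in a gene used for the sort was set by the sort itself.

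Blood stem cells are told from their progeny mainly by combinations of surface proteins. The endothelial protein C receptor (Procr), the SLAM receptor Slamf1 and the GPI-anchored protein encoded by Ly6a mark mouse stem cells. Gain of Cd48, Flt3 or, in adult mice, Cd34 goes with multipotent and committed progenitors. Esam, Tek and Tie1 encode an adhesion molecule and a pair of receptor tyrosine kinases that stem cells share with the endothelium, and Cd24a encodes a small glycosylated adhesion molecule found on erythroid, lymphoid and myeloid precursors.

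The filter kept 2668 wells and dropped 401. The control mice gave 328 HSC, 300 CFU cells and 644 MkP, and the depleted mice gave 369, 347 and 680. Counts summed per mouse and population ranged from 68792249 to 327869432. The median number of genes per cell was lower in depleted than in control mice in each population, at 5595 against 6514 in HSC, 7908 against 8397 in CFU cells and 5915 against 6921 in MkP. Fixed lists of cell type genes that hold none of the 10 markers were used to check the labels. A list was taken as held where no fewer of its genes reached 10 CPM than fell short of it. A list of 7 stem cell genes such as Hlf, Mecom and Fgd5 was held by 539 of 697 HSC, 1 of 647 CFU cells and 236 of 1324 MkP. A list of 8 megakaryocyte genes was held by 854 of 1324 MkP and 107 of 697 HSC, and a list of 8 erythroid genes by 626 of 647 CFU cells, so the cells labelled CFU carried erythroid genes. No cell of any population held the list of endothelial genes, whose summed level in HSC was between 6.07 and 41.5 CPM per mouse, with Lyve1 at 0.

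Slamf1 and Cd48 are neighbours on mouse chromosome 1 of which Cd48 was higher and Slamf1 lower in CFU cells than in HSC, and Procr was the marker with the largest fall from HSC to both other populations. Their promoters and that of Tie1 are shown for this reason. Each line gives the 250 bases before the start site of the transcript listed in RefSeq, with GRCm38.p6 coordinates, 5′ to 3′ on the strand of the gene. Capitals mark a match to 1 of 4 short motifs that were searched on both strands, namely AGATAA and AGGAAG as well as TGTGGT and CAGCTG.
Procr, chr2:155750967-155751216, plus strand: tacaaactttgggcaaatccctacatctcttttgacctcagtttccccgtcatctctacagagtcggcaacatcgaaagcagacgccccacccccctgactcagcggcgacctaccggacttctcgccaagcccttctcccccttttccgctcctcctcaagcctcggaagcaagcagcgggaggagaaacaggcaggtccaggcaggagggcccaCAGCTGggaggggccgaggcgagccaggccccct
Slamf1, chr1:171766882-171767131, plus strand: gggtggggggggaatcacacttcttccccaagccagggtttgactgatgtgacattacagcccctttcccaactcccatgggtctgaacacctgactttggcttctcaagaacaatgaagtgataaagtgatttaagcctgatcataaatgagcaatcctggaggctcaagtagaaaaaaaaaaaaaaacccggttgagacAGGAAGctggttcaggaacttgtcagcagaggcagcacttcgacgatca
Cd48, chr1:171681742-171681991, plus strand: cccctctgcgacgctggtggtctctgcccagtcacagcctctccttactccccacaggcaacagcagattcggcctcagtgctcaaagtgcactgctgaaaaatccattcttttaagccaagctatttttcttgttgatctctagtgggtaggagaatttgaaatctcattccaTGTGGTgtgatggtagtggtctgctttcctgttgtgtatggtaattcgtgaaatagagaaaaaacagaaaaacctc
Tie1, chr4:118489850-118490099, minus strand: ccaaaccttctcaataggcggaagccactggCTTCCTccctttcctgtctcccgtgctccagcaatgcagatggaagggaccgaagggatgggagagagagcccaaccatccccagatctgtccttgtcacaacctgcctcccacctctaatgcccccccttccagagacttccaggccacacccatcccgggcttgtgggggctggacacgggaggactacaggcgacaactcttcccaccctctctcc

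The Procr window holds CAGCTG at position -34 from the start, that of Slamf1 holds AGGAAG at -49, and that of Cd48 holds TGTGGT at -76. In the Tie1 window AGGAAG stands on the other strand at -219. Among 32851 promoter windows of the same length, 9.99% hold AGATAA, 29.5% AGGAAG, 14% TGTGGT and 13% CAGCTG, so such matches are common. Of the other members with a window, Cd34 holds AGGAAG on the other strand at -142, and the windows of Flt3 and Tek hold none of the 4 motifs. The genes of Slamf1 and Cd48 occupy chr1:171767131-171801184 and chr1:171681245-171705258. The Cd48 window lies inside the span of its gene, so it precedes the start of a transcript that begins downstream of the gene's first base. The Procr window runs past the first base of its gene, at chr2:155751125, and its CAGCTG lies inside the gene's span.

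Levels are given as CPM, the summed counts of a mouse set against its library size, scaled by the trimmed mean of M-values (TMM). To compare genes, the CPM was divided by the length of the gene's exons in kilobases. On that scale the order in HSC was Ly6a at 178 ± 53.3 CPM per kb (SD, n = 8 mice), Cd24a at 160 ± 27.5, Procr at 78.4 ± 20.9, Esam at 68.5 ± 11.6, Cd34 at 35.5 ± 8.35, Tie1 at 34.4 ± 2.62, Slamf1 at 14.1 ± 4.18, Tek at 10.5 ± 2.45, Cd48 at 2.95 ± 3.51 and Flt3 at 2.72 ± 1.60. The ranges over 8 mice overlapped between the neighbours Ly6a and Cd24a, Procr and Esam, Cd34 and Tie1, Slamf1 and Tek, Tek and Cd48, and Cd48 and Flt3. In MkP the highest levels per kb were those of Cd48 at 53.6 ± 10.4 and Cd24a at 40.8 ± 7.97, and the lowest were those of Procr at 0.639 ± 0.472 and Flt3 at 0.556 ± 0.174. In CFU cells Cd24a stood at 635 ± 76.6 CPM per kb, Cd48 at 14.7 ± 7.32, and the other 8 markers at 1.59 or less. Ly6a and Cd24a belong to families with close copies in the mouse genome, and their counts are uncertain to the extent that reads were shared between copies.

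**Figure D1:**
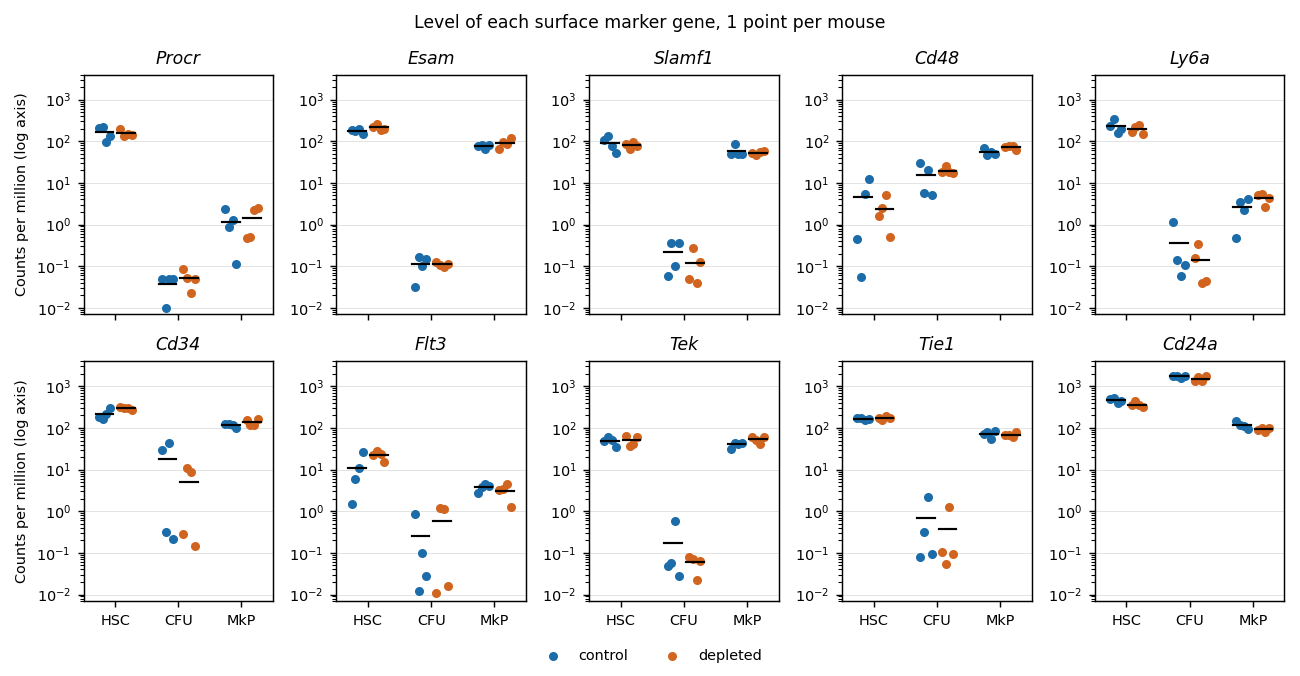
Level of the 10 marker genes in CPM (log axis) in HSC, CFU cells and MkP, with 1 point per mouse, blue for the 4 control and orange for the 4 depleted mice, and a black line at each group's mean. A value below 0.01 CPM is drawn at 0.01. Most markers are near 0 in CFU cells. Cd48 and Cd24a are the exceptions, and Cd34 varies there from 0.150 to 42.9 CPM between mice. The blue and orange points overlap for every marker in each population.

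Procr and Ly6a were nearly restricted to HSC among the 3 populations. Procr lay between 94.9 and 219.8 CPM in the HSC of 8 mice with a median of 147, between 0.115 and 2.48 CPM in MkP and between 0 and 0.0835 CPM in CFU cells. The mice of the 3 populations did not overlap. In MkP 1 cell held up to 95.7% of all Procr counts of a mouse. Procr was lower in MkP than in HSC by a log2 fold change of -6.95 (SE 0.53, edgeR adjusted p = 1.77e-09), and lower in CFU cells than in HSC by -11.80 (SE 0.67, edgeR adjusted p = 3.31e-13). Ly6a, the gene of the stem cell antigen of the Ly6 family, had 149 to 343 CPM in HSC with a median of 208. Its level was 0.472 to 5.37 CPM in MkP and 0.0386 to 1.13 CPM in CFU cells, so that HSC stood apart from both in all 8 mice. Its log2 fold change was -5.92 (SE 0.60, edgeR adjusted p = 1.04e-07) in MkP against HSC and -9.82 (SE 0.72, edgeR adjusted p = 2.66e-11) in CFU cells against HSC.

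Esam, the endothelial cell-selective adhesion molecule, declined in steps from HSC through MkP to CFU cells. It stood at 145 to 261 CPM in HSC with a median of 193, at 65.3 to 121 CPM in MkP with a median of 82.9, and at 0.0324 to 0.162 CPM in CFU cells. The mice of the 3 populations did not overlap. The log2 fold change was -1.21 (SE 0.15, edgeR adjusted p = 1.17e-06) in MkP and -10.77 (SE 0.23, edgeR adjusted p = 3.33e-20) in CFU cells, each against HSC.

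The SLAM genes went separate ways. Slamf1 was present in HSC at 51.5 to 136 CPM, median 81.9, and in MkP at 46.02 to 87.6 CPM, median 51.4, and these ranges overlapped. It was not called between MkP and HSC, at a log2 fold change of -0.63 (SE 0.30, edgeR adjusted p = 0.123). In a fit of only these 2 populations the change of -0.64 in Slamf1 had an edgeR adjusted p of 0.0093. In CFU cells Slamf1 was at 0.0386 to 0.368 CPM, a log2 fold change of -9.00 against HSC (SE 0.43, edgeR adjusted p = 2.21e-14). Cd48, a GPI-anchored SLAM relative, ran the other way. Its level was 0.0548 to 12.5 CPM in HSC with a median of 2.08, 5.11 to 30.2 CPM in CFU cells with a median of 17.96, and 46.1 to 78.7 CPM in MkP with a median of 66.1. All 8 mice had more Cd48 in MkP than any mouse had in HSC or in CFU cells, while HSC and CFU cells overlapped. The log2 fold change was 4.19 in MkP against HSC (SE 0.70, edgeR adjusted p = 6.23e-05), 2.33 in CFU cells against HSC (SE 0.65, edgeR adjusted p = 0.00323) and -1.86 in CFU cells against MkP (SE 0.63, edgeR adjusted p = 0.0153). In HSC the Cd48 value rests on few cells, since 1 cell held between 12.5% and 97.7% of the Cd48 counts of a mouse. The 22 HSC with Cd48 after thinning had a median of 6960 genes, against 5920 in the 669 without.

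Cd34 and Flt3, which mark progenitors in adult marrow, were both found in HSC. Cd34, a sialomucin, had 169 to 318 CPM in HSC with a median of 286 and 100.005 to 161 CPM in MkP with a median of 121, with no overlap of the 8 mice. The fit of all 24 sums did not call it, at a log2 fold change of -1.04 (SE 0.78, edgeR adjusted p = 0.356). The fit of HSC and MkP alone gave -1.02 for Cd34 with an edgeR adjusted p of 5.5e-06. In the fit of 24 sums the spread is estimated with CFU cells included, where Cd34 ranged from 0.150 to 42.9 CPM and 1 cell held up to 99.5% of a mouse's counts. Of the 22 CFU cells with Cd34 after thinning, 6 held the myeloid list, against 2 of the 624 without. Flt3, the receptor of Flt3 ligand, had 1.502 to 27.4 CPM in HSC, median 19.1, and 1.25 to 4.52 CPM in MkP, median 3.65. It was lower in MkP by a log2 fold change of -2.15 (SE 0.81, edgeR adjusted p = 0.0479), a call close to the threshold. With the mouse as a block the edgeR adjusted p of Flt3 was 0.0582. Leaving out single mice gave between 0.0432 and 0.108, and the call held only without control mouse 2. Against HSC, CFU cells were lower in Cd34 by -4.61 (SE 0.92, edgeR adjusted p = 0.000136) and in Flt3 by -5.36 (SE 0.93, edgeR adjusted p = 2.31e-05).

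The angiopoietin receptor gene Tek and its relative Tie1 were expressed in HSC and MkP and near 0 in CFU cells. Tek stood at 34.1 to 65.05 CPM in HSC, median 49.3, and at 31.5 to 62.3 CPM in MkP, median 43.6. These ranges overlapped nearly in full, and the log2 fold change was -0.06 (SE 0.39, edgeR adjusted p = 0.938). Tie1 had 152 to 190.5 CPM in HSC, median 172, and 53.2 to 82.3 CPM in MkP, median 70.6, with no overlap. Tie1 was not called in the fit of 24 sums, at a log2 fold change of -1.27 (SE 0.51, edgeR adjusted p = 0.0645). Without control mouse 3 the edgeR adjusted p of Tie1 was 0.0402. In the fit of HSC and MkP alone Tie1 changed by the same amount, -1.27, with an edgeR adjusted p of 3.97e-08. In CFU cells Tie1 stood at 0.0531 to 2.22 CPM, and in control mouse 3, the highest, 1 cell held 73.5% of its counts. CFU cells were lower than HSC by -8.78 in Tek (SE 0.56, edgeR adjusted p = 2.39e-12) and by -8.38 in Tie1 (SE 0.70, edgeR adjusted p = 3.10e-10).

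Cd24a was the only marker of the 10 with its highest level in CFU cells. It measured 1332 to 1811 CPM in CFU cells, median 1694, 322 to 515 CPM in HSC, median 421, and 81.9 to 149 CPM in MkP, median 99.3. No mouse of a population overlapped one of another. Against HSC the log2 fold change of Cd24a was 1.99 in CFU cells (SE 0.09, edgeR adjusted p = 9.77e-15) and -1.98 in MkP (SE 0.09, edgeR adjusted p = 8.52e-13).

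In total, 5 members were called lower and 1 higher in MkP than in HSC, beside 13.1% and 16.8% of 20852 genes tested. In CFU cells against HSC 8 members were lower and 2 higher, beside 35.8% and 27.7% of all genes. In CFU cells against MkP 9 were lower and 1, Cd24a, was higher, beside 31.1% and 22.3%. The median log2 fold change of the members was -1.24 in MkP against HSC, where that of all genes was 0.01, and -8.58 in CFU cells against HSC, where that of all genes was -0.27. In the fit of HSC and MkP alone 9 of the 10 members were called, all but Tek, beside 6414 of 19954 genes.

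**Figure D2:**
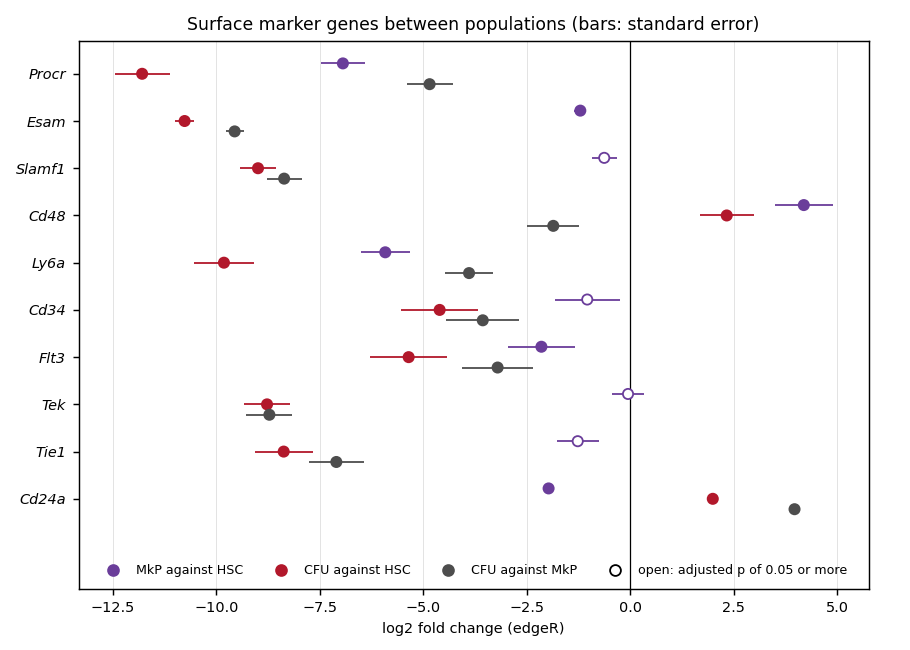
Log2 fold change of each marker between populations over 8 mice (edgeR), with bars for the standard error and filled symbols for an adjusted p under 0.05. Esam and Tek show a wide gap between the change in CFU cells and the change in MkP, and only Cd48 lies above 0 in both populations against HSC.

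Genes related to the markers were read from 6 fixed lists. Among 7 other SLAM family genes, 2 were lower and 0 higher in MkP than in HSC, and 4 were lower and 0 higher in CFU cells. The largest fall was that of Slamf8, from 12.5 ± 5.83 CPM in HSC (SD, n = 8 mice) to 0.325 ± 0.335 in MkP and 0.00916 ± 0.0124 in CFU cells. Of 7 other Ly6 family genes, 4 were tested, and Ly6e fell in both populations, from 868 ± 101 CPM in HSC to 563 ± 32.1 in MkP and 562 ± 102 in CFU cells. Ly6c2 was higher in CFU cells than in HSC at 50.8 ± 57.6 against 0.442 ± 0.321 CPM, and Ly6c1 was lower in MkP than in HSC at levels under 1 CPM in all 3 populations.

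Of 12 other stem cell surface genes, 8 were lower and 2 higher in MkP than in HSC, and 9 were lower and 2 higher in CFU cells. Neo1, a netrin family receptor of quiescent stem cells, fell most, from 21.7 ± 20.2 CPM in HSC to 0.824 ± 0.977 in MkP and 0.00581 ± 0.00768 in CFU cells. The tetraspanin gene Cd9 was higher in MkP, 667 ± 64.9 against 217 ± 39.7 CPM, and its relative Cd82 was higher in CFU cells, 373 ± 40.99 against 62.7 ± 15.6. Of 14 surface genes shared with the endothelium 12 were tested. All 12 were lower in CFU cells than in HSC and 5 were lower in MkP, with Robo4, a guidance receptor, at 50.7 ± 11.1 CPM in HSC, 2.91 ± 0.977 in MkP and 0.0169 ± 0.00793 in CFU cells.

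Among 18 surface genes of committed progenitors, of which 16 were tested, 5 were higher and 1 lower in MkP, and 5 were higher and 7 lower in CFU cells, each against HSC. The inhibitory Fc receptor gene Fcgr2b rose from 0.348 ± 0.288 CPM in HSC to 15.3 ± 3.32 in MkP, the transferrin receptor gene Tfrc from 14.6 ± 7.95 to 412 ± 88.3 in CFU cells. The G-CSF receptor gene Csf3r fell from 85.5 ± 22.6 CPM in HSC to 9.98 ± 3.49 in MkP, and Cd38 fell from 25.6 ± 12.1 to 0.109 ± 0.251 in CFU cells. Of 13 ligands and partners of the members 8 were tested. The thrombin receptor F2r, which activated protein C can cleave when it is bound to the Procr protein, was higher in MkP at 610.4 ± 88.5 CPM than in HSC at 189 ± 30.9. Flt3l, the ligand of Flt3, was lower in MkP at 9.47 ± 1.85 CPM than in HSC at 13.5 ± 3.48. Selp, the P-selectin gene, fell in CFU cells from 186 ± 71.6 to 1.69 ± 2.56 CPM.

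Over the 24 sums, the gene whose log2 CPM followed a marker most closely was Sult1a1 for Procr (Pearson r = 0.98), Esam for Slamf1 (r = 0.99), Rfc2 for Cd48 (r = 0.92), Gm4951 for Ly6a (r = 0.97), Il15 for Cd34 (r = 0.97), Rassf2 for Flt3 (r = 0.94), Trpc6 for Tek (r = 0.99), Csgalnact1 for Tie1 (r = 0.99) and Cd82 for Cd24a (r = 0.98). The next in rank were Hid1, Gucy1a1, Cdca7, Samd10, Arhgap27, Pcp4l1, Meis1, Gcnt2 and Rab3il1, in the same order of markers. Rhof was among the closest genes for Esam (r = 0.99). The points share mice, libraries and 3 populations, whose differences dominate these values, so they are a description of the pattern over populations.

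Single cells were compared after each was thinned to 100000 counts, and a cell was taken as positive with at least 1 count. The share of HSC with a count was 94.3% ± 3.43 (SD, n = 8 mice) for Cd24a, 77.7% ± 5.78 for Tie1, 74.8% ± 4.59 for Esam, 71.8% ± 6.27 for Ly6a, 67.2% ± 6.17 for Procr, 63.6% ± 10.04 for Cd34, 48.5% ± 9.53 for Slamf1, 32.99% ± 6.65 for Tek, 11.8% ± 7.29 for Flt3 and 3.29% ± 3.20 for Cd48. In MkP the mean shares of Tek, Slamf1, Esam, Cd48, Cd34 and Tie1 ran from 36.8% for Tek to 49.96% for Tie1, with Cd24a at 50.99% ± 6.69, Procr at 2.99% ± 1.42, Ly6a at 4.60% ± 2.33 and Flt3 at 3.24% ± 1.33. CFU cells, which had the most genes per cell, all held Cd24a, and 27.3% ± 8.15 of them held Cd48. Shares of the other 8 markers in CFU cells were 0.482% to 3.47%, the highest for Cd34 and the next for Tie1 at 1.45%. In MkP with a count, Procr, Ly6a and Flt3 had median levels over mice of 40, 97.8 and 116 CPM. In the 4, 7 and 4 such CFU cells these were 10, 20 and 70 CPM. After thinning to 100000 counts, 10 CPM is 1 count, the lowest level that a cell with a count can have. How far the low shares of Procr, Ly6a and Flt3 in MkP and of Cd48 in HSC differ from background was not tested. The median HSC held 5 of the 10 markers, the median MkP 3 and the median CFU cell 1.

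**Figure D3:**
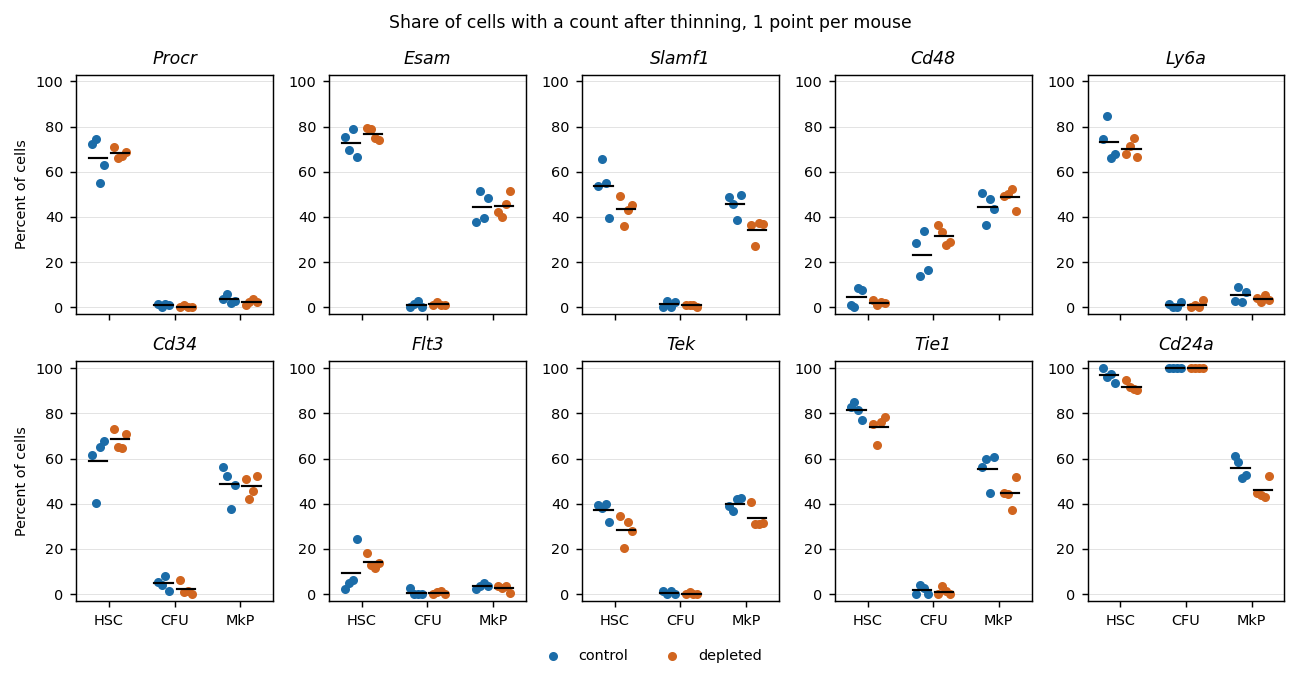
Percent of cells with at least 1 count of each marker after thinning to 100000 counts, with 1 point per mouse in HSC, CFU cells and MkP, blue for control and orange for depleted mice, and a black line at each group's mean. In MkP the 4 orange points of Slamf1 lie below the 4 blue ones, and the HSC of control mouse 4 hold the highest share of Flt3, 24.4%.

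Combinations of markers within single cells were counted in the same way. Slamf1 without Cd48 was found in 324 of 691 HSC (46.9%; 35.1% to 65.8% per mouse), 287 of 1319 MkP (21.8%) and 5 of 646 CFU cells (0.774%). Procr, Esam and Slamf1 together with no Cd48 were found in 176 HSC (25.5%; 13.8% to 36.7% per mouse), in 10 MkP (0.758%) and in 0 of 646 CFU cells, which allows a share of cells with these counts of up to 0.464%. Ly6a with Procr, Esam and Tie1 was found in 235 HSC (34.01%) and 2 MkP (0.152%). Slamf1 and Cd48 in the same cell were seen in 240 MkP (18.2%) and 9 HSC (1.30%). The shares are of cells pooled over mice, and the limit of 0.464% covers counting error only, not the spread between mice. The reads carry no molecular identifiers. A cell without a count may still hold the transcript.

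Within HSC, some markers were found in the same cells more often than others. For each mouse the odds ratio of 2 genes having a count in the same cell was taken on the log2 scale, with 0.5 added to each of the 4 cell numbers, for the 9 markers seen in 5% to 95% of HSC. Of the 36 pairs, 4 had a value above 0 in all 8 mice and 0 had one below 0 in all 8. Between a marker and any other gene of that range, 2.35% of 104589 pairs were above 0 in all 8 mice and 1.24% below. The share below 0 in all 8 mice differed between markers, with 4.97% for Procr, 3.24% for Ly6a and 0.163% for both Cd34 and Flt3. The median log2 odds ratio of a marker with any other gene also differed, from -0.21 for Cd24a to 0.39 for Flt3.

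Procr and Ly6a had the highest median odds ratio of the 36 pairs. Of HSC with Procr 83.2% held Ly6a, 387 of 465, against 47.8% of HSC without, 108 of 226. By mouse the share in HSC with Procr was 85.5%, 94.9%, 81.8% and 81.6% in control mice and 80.3%, 83.9%, 83.1% and 75% in depleted mice. The share in HSC without Procr was 45.8%, 55%, 47.2% and 44.8%, and 37.04%, 46.9%, 58.6% and 48.3%, so that no mouse with the first overlapped the second. The median log2 odds ratio of Procr and Ly6a was 2.44, with 1.65 as the lowest and 3.74 as the highest mouse. It was 2.47 when each mouse's HSC were first split at their median number of genes.

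Flt3 was found almost only in HSC that held Cd34. Of 82 HSC with Flt3 92.7% held Cd34, against 60.1% of the 609 without, and the median log2 odds ratio was 2.37 (1.36 to 4.12 over 8 mice). Without thinning the median for Cd34 and Flt3 was 0.94, above 0 in 8 of 8 mice, and at 20000 counts per cell 7 of 8 mice were above 0. Esam and Tie1 had a median of 1.23 (0.29 to 1.70), with Tie1 in 80.7% of HSC that held Esam and 67.6% of those that did not, and without thinning 6 of 8 mice were above 0. Esam and Slamf1 had a median of 0.29 (0.06 to 1.29), and with HSC split at the median number of genes it was 0.10, above 0 in 6 of 8 mice. The median with any other gene was 0.31 for Slamf1 and 0.17 for Esam, so 0.29 was no higher than that of Slamf1. Tek and Tie1, a receptor pair, were above 0 in 7 of 8 mice with a median of 0.51. Procr and Esam, both high in HSC as a population, were above 0 in 4 of 8 mice with a median of -0.08.

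Fixed partner genes outside the set were compared in the same way. Vwf, the gene of von Willebrand factor and a mark of platelet-biased stem cells, was found in 40.3% of HSC with Cd34 and in 64.7% of those without, and the odds ratio was below 0 in all 8 mice with a median of -1.63 (-2.03 to -0.16). Without thinning the median for Cd34 and Vwf was -0.21 with 3 of 8 mice above 0, and at 20000 counts 1 mouse was above 0. For Flt3 and Vwf no mouse was above 0, with a median of -0.44 and 0 as the highest value. Slamf1 and Vwf were above 0 in 7 of 8 mice with a median of 1.45. Vwf was found in 62.2% of HSC with Slamf1 and in 36.9% of those without. Cd27, a receptor of the TNF receptor family, was above 0 in all 8 mice with Cd34, with a median of 1.14, and with Flt3, with a median of 1.79. Without thinning 6 of 8 mice were above 0 for Cd34 and Cd27, and 7 of 8 for Flt3 and Cd27.

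The integrin gene Itga2b, expressed along the megakaryocyte line, was less often found in HSC with Procr, 49.9% against 76.5% of those without, below 0 in all 8 mice with a median of -1.68. Without thinning the median for Procr and Itga2b was -0.33, with 3 of 8 mice above 0. It was also below 0 in all 8 mice with Ly6a, at a median of -1.02, and without thinning this median was 0.14. The proliferation gene Mki67 was found in 10.3% of HSC with Ly6a and 26.5% of those without, below 0 in all 8 mice with a median of -1.76, and with Procr it was below 0 in 7 of 8 mice with a median of -1.61. Without thinning the medians with Mki67 were -0.95 for Ly6a, with 1 mouse above 0, and -0.68 for Procr, with 3 mice above 0. Kit was found in over 95% of HSC and was not used as a partner.

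**Figure D4:**
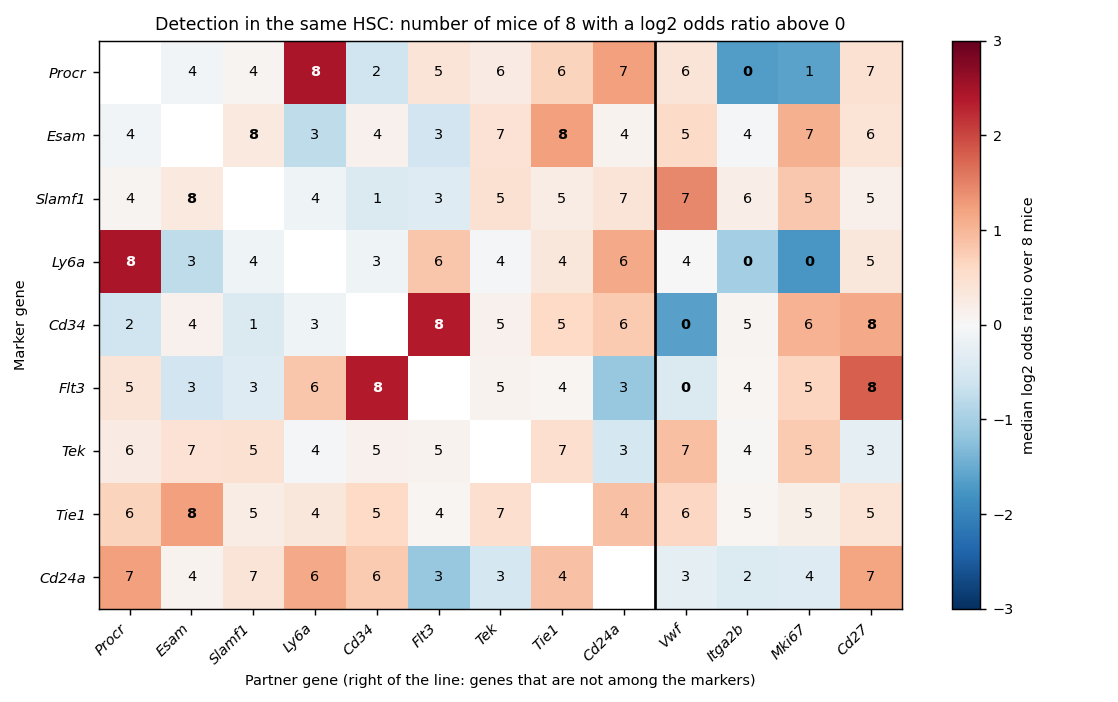
Markers (rows) and partner genes (columns) found in the same HSC. Colour gives the median log2 odds ratio over 8 mice, and the digit in each square counts the mice above 0, in bold where all 8 mice or none were above 0. Procr with Ly6a and Cd34 with Flt3 are the deepest red squares among the markers, at 2.44 and 2.37.

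Depleted and control mice were compared within each population. No marker was called in HSC, CFU cells or MkP by edgeR or by DESeq2. Over all genes edgeR called 0% of 17146 genes in HSC, 0% of 15661 in CFU cells and 0.0108% of 18512 in MkP, with 1467, 1857 and 2532 genes at an unadjusted p under 0.05. DESeq2 called 267, 472 and 955 genes. Procr was too low to be tested in CFU cells.

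Cd24a in HSC was at 491, 515, 402 and 445 CPM in control mice and 347, 441, 349.6 and 322 CPM in depleted mice, and the groups overlapped. Its log2 fold change was -0.37 (SE 0.13) in HSC, -0.25 (SE 0.09) in CFU cells and -0.32 (SE 0.14) in MkP, with edgeR adjusted p of 0.493, 0.335 and 0.339. Cd34 in HSC was at 183, 169, 217 and 305 CPM in control mice and 318, 306, 307 and 268 in depleted mice, where control mouse 4 reached the depleted range. Its log2 fold change was 0.45 (SE 0.17, edgeR adjusted p = 0.526). Flt3 in HSC overlapped through the same control mouse, with 1.502, 6.01, 10.8 and 26.6 CPM in control and 22.9, 27.4, 23.98 and 15.3 in depleted mice, and its log2 fold change of 0.99 (SE 0.67) had an edgeR adjusted p of 0.711.

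Procr, Ly6a, Slamf1, Tek and Tie1 in HSC differed by -0.10 (SE 0.26), -0.27 (SE 0.26), -0.21 (SE 0.28), 0.05 (SE 0.24) and 0.02 (SE 0.11). In MkP Cd48 was at 69.1, 46.1, 55.9 and 48.5 CPM in control and 72.4, 75.7, 78.7 and 63.1 CPM in depleted mice. The groups overlapped through control mouse 1, and the log2 fold change of Cd48 was 0.42 (SE 0.14, edgeR adjusted p = 0.246). Tek in MkP changed by 0.45 (SE 0.16, edgeR adjusted p = 0.270). In CFU cells the SE of Slamf1, Ly6a, Cd34, Flt3, Tek and Tie1 was between 0.86 and 1.68, so that changes of several fold in either direction could not be seen there. The change with treatment was also compared between populations in 1 model. No marker was called, beside 0.0144% of 20852 genes for MkP against HSC, 0% for CFU cells against HSC and 0% for CFU cells against MkP. At an unadjusted p under 0.05 edgeR had 1261, 1887 and 1229 genes, and DESeq2 called 315, 587 and 457, no marker among them.

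**Figure D5:**
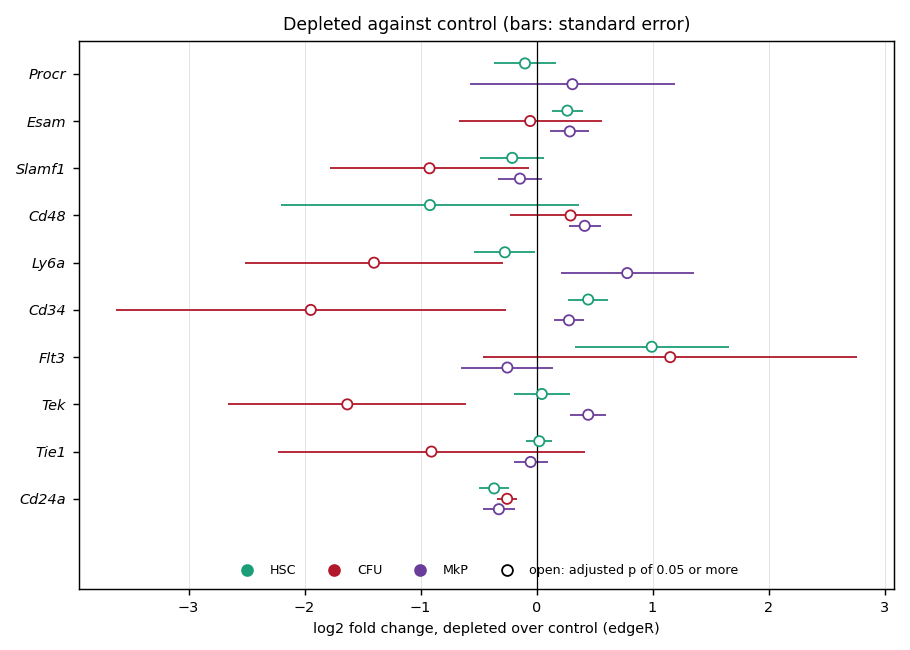
Log2 fold change of each marker in depleted over control mice (edgeR, 4 against 4 mice) in HSC, CFU cells and MkP, with bars for the standard error. All symbols are open, since no adjusted p was under 0.05, Procr has no value in CFU cells, and Cd34 and Flt3 in CFU cells have the widest bars.

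The share of cells with a count was also compared between the 4 depleted and 4 control mice. In MkP the share with Slamf1 was 48.8%, 45.9%, 38.9% and 49.7% in control mice and 36.4%, 27.2%, 37.3% and 36.8% in depleted mice, with no overlap. This was 1 of 10 markers lower in all depleted mice, beside 15.6% of all 15479 genes, and the median number of genes per cell was lower in depleted MkP as given above. The part of gene number in this result was not tested. The level of Slamf1 in MkP did not show the same, with 48.5, 87.6, 49.9 and 50.04 CPM in control and 52.7, 46.02, 54.3 and 58.3 CPM in depleted mice. At 20000 counts per cell 0 of 10 markers were apart in MkP, beside 979 of 13242 genes. Without thinning the groups overlapped for Slamf1 as well. The 1 marker then apart in MkP was Tek, beside 4350 of 18338 genes.

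In HSC 0 of 10 and in CFU cells 0 of 7 markers seen in at least 1% of cells were lower in all depleted mice, beside 8.87% and 3.69% of all genes. Without control mouse 4, which held the fewest Slamf1 and the most Flt3 cells among the control HSC, the groups did not overlap for 5 of 10 markers in HSC, beside 2041 of 15960 genes. Slamf1, Tek, Tie1 and Cd24a were then lower and Flt3 was higher in depleted mice. Of the control mice, only that one had kept the groups of these 5 markers from separating, so their separation without it follows from leaving it out. Depleted mice also took part in the overlap of 3 of them. Tek and Cd24a separated without depleted mouse 1 as well, and Tie1 without depleted mouse 4. Leaving out any other single mouse gave 0 to 2 of 10 markers, with 2 without depleted mouse 1, beside 2535 of 16101 genes. The share of HSC with Flt3 was 2.33%, 5.06%, 6.25% and 24.4% in control mice and 18.3%, 12.8%, 11.4% and 13.98% in depleted mice. Tek was found in 37.4% ± 3.66 of control and 28.6% ± 6.19 of depleted HSC (SD, n = 4 mice each), and Cd34 in 58.8% ± 12.4 and 68.4% ± 4.25.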

How the data were processed

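The deposited matrix holds whole-number read counts per gene and well, with no molecular identifiers, from Smart-seq2 libraries per the labels' protocols. The submitters' processing notes name Trim Galore 0.5, STAR 2.6.0 and HTSeq 0.6.1. Build and annotation of the counting: not given in the sources used here. Among 3070 columns, 1 matched no labelled well and was not used. Wells with at least 20000 counts, 1000 genes and at most 20% mitochondrial counts were kept. No doublet caller was run, and 73 cells of over 10000 genes were left out in an alternative. Counts were summed per mouse and population into 24 sums and tested with edgeR 4.0.16 (quasi-likelihood, TMM, filterByExpr) in R 4.3.3, with Benjamini-Hochberg adjustment over all genes and a threshold of 0.05. The SE given with an edgeR log2 fold change is the size of the change divided by the square root of its F statistic. It is approximate, above all where counts were near 0. DESeq2 1.42.0 was an alternative, as were other filters, cell sets, thinning, leaving out each mouse and the mouse as a block. In tests on simulated data, edgeR called 85% of 100 genes changed by 1 on the log2 scale between MkP and HSC (20132 genes), and 53% between treatments in HSC (17159 genes). The changed genes had a mean of at least 8 CPM and started from the same mean in all populations. These percentages therefore do not cover markers near 0 in a population. Same-mouse sums deviated together in all 24 pairs of populations (r from 0.0266 to 0.183), and the pairing itself comes from the mouse code in the titles. Cells were thinned to 100000 counts for shares, leaving 691 HSC, 646 CFU cells and 1319 MkP. All 10 markers were named, and related genes were named as the largest change in each direction of a list. The markers and lists were chosen with earlier results of these data known. Where nothing says that mice were handled separately, p-values measure only the spread between these samples. A withheld item among the related genes is not reported here.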

Additional observations from a re-analysis of the deposited data

Results flagged for a closer look

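In 10 of 108 groups of 4 mice, 1 mouse lay far from the other 3, where chance flags about 1 in 20 groups (5%). In MkP, Slamf1 stood at 87.6 CPM in control mouse 2 against 48.5 to 50.04 in the other control mice, and Tek at 31.5 CPM in control mouse 1 against 42.1 to 44.1. The share of MkP with Slamf1 was 27.2% in depleted mouse 2 against 36.4% to 37.3%, and that with Tek was 40.6% in depleted mouse 1 against 31.01% to 31.3%. In CFU cells, Cd48 stood at 25.8 CPM in depleted mouse 2 against 17.2 to 18.1. Ly6a was at 1.13 CPM in control mouse 1 against 0.0575 to 0.137, and Tie1 at 2.22 CPM in control mouse 3 against 0.0810 to 0.317 and at 1.23 CPM in depleted mouse 3 against 0.0531 to 0.106. In these mice 1 cell held 95% of the Ly6a counts, and 73.5% and 95.5% of the Tie1 counts. The share of CFU cells with Esam was 2.30% in depleted mouse 2 against 1.08% to 1.25%, and that with Slamf1 was 0% in depleted mouse 4 against 1.08% to 1.25%. These 2 flags rest on 2 cells against 1 cell in each other depleted mouse for Esam, and on 0 cells against 1 for Slamf1.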

How the results depend on the processing

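With the mouse as a replicate block, 5 markers instead of 6 were called between MkP and HSC, because Flt3 was lost. This stood beside 6498 of 20852 genes. The counts for CFU cells against HSC and MkP were 10 and 10, beside 13155 and 11296 of 20852 genes. The block changed no other call. Leaving out single mice gave 5 to 6 called between MkP and HSC, beside 5465 of 21334 to 5934 of 21379 genes. Slamf1 was called with cells thinned (edgeR adjusted p = 0.00095) and at a mean of 8 CPM or more (0.0456), and Tie1 likewise (0.000828 and 0.0261). DESeq2 moved the median of all genes in CFU cells against HSC from -0.27 to -0.38. Against edgeR's 0, 0 and 2 genes between treatments in HSC, CFU cells and MkP, DESeq2 called 267, 472 and 955, a mean of 8 CPM or more gave 6, 37 and 147, and a fit of all 6 groups gave 47, 51 and 1. The number of markers whose shares did not overlap between treatments was 1 in HSC without thinning (1766 of 18761 genes) and 1 with at least 2 counts (1080 of 14301), 0 to 5 without single mice, with 5 without control mouse 4 (2041 of 15960) and 2 without depleted mouse 1 (2535 of 16101). It was 0 to 1 in CFU cells without single mice, with 1 without depleted mouse 1 (1035 of 14353). In MkP it was 0 at 20000 counts (979 of 13242), 1 without thinning (4350 of 18338) and 1 to 3 without single mice, with 3 without control mouse 3 (3257 of 15470). The marker apart in MkP without thinning was Tek, and Slamf1 was lost. Marker pairs above 0 in all mice numbered 2 at 20000 counts (1232 of 93546 pairs with any gene), where Cd34 with Flt3 and Esam with Slamf1 were lost, and 2 without thinning (3103 of 121698), where Esam with Tie1 and Esam with Slamf1 were lost. They numbered 3 with at least 2 counts (1942 of 96408) and 3 without cells of over 10000 genes (1191 of 103581). With HSC split at the median number of genes they numbered 3 (2761 of 104589). Each of these settings lost Esam with Slamf1. In control mice alone 6 of 28 pairs were above 0 (12404 of 93648), and in depleted mice alone 5 of 36 (13034 of 102789). Without single mice 4 to 6 pairs were above 0, beside 3431 of 105048 to 3714 of 104292 pairs with any gene. Pairs below 0 in all mice numbered 2 in depleted mice alone (5287 of 102789) and 0 to 1 without single mice. The 1 pair appeared without control mouse 3 (1518 of 104346). The median for Ly6a and Itga2b turned to 0.14 without thinning, that for Cd34 and Vwf moved to -0.21, for Procr and Itga2b to -0.33, for Ly6a and Mki67 to -0.95 and for Procr and Mki67 to -0.68. The causes were not tested.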
